A study of Mus musculus with 6 samples.

Results

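Kbtbd11, Fam102a, Btbd11 and Gzmb are 4 genes that the study drew among its genes lowered by DASA-58 and that are not classical osteoclast markers. They make up 4 of the 23504 genes in the deposited table. They were chosen by their lower measured values in these same libraries, so the difference between groups is a description of them and carries no test. RNA was sequenced from bone marrow–derived macrophages (BMMs) of male C57BL/6 mice aged 6 to 8 weeks, which had been expanded with M-CSF. One group of 3 libraries received DASA-58, an activator of the glycolytic enzyme PKM2, and the other group of 3 received the solvent DMSO, and RNA was taken at day 3. The study's results state that RANKL was given to both groups, whereas its methods name RANKL only beside the activator, spell the latter DASA-48 and give no dose. The study calls its replicates independent in general terms, but neither it nor the labels say whether the 3 libraries of a group came from separate mice or cultures, so p-values measure the spread between these libraries, which may be technical.

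RANKL turns macrophages into osteoclasts through its receptor RANK, which together with immunoreceptor-type signals activates PLCγ2, raises calcium and switches on the transcription factor NFATc1. Fam102a encodes EEIG1, an adaptor that joins RANK to Gab2, PLCγ2 and the kinases Btk and Tec. Kbtbd11 encodes a BTB and Kelch domain protein that has been described as bringing NFATc1 to the CUL3 ubiquitin ligase, and so as a brake on osteoclast formation. Btbd11 encodes a protein with ankyrin repeats and a BTB domain, known mainly from synapses. Gzmb encodes granzyme B, a serine protease stored in the granules of cytotoxic lymphocytes.

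Levels are in FPKM, which scales the fragments of a gene by its length and by the depth of the library. Whole fragments were recovered from the steps between these values, which gave a depth of 18191560 to 18968556 fragments per library. Macrophage markers were abundant, with a summed level over 10 genes of 16500 to 17300 FPKM under DMSO and 17500 to 19900 FPKM under DASA-58. Lyz2 (lysozyme) made up most of this sum, at 14701 to 15513 FPKM and 15447 to 17767 FPKM, and its groups overlapped. Of the 10 genes, 5 were higher and 1 was lower under DASA-58, and of 10 tested osteoclast markers 10 were lower, several of them picked by the study on these libraries, where 7.28% of all genes tested were lower and 4.24% higher. The test was limma on log2(FPKM + 1) over 10965 genes averaging 1 FPKM or more, and a gene was called when its Benjamini-Hochberg adjusted p was under 0.05. In bulk RNA, fewer cells of a type and less RNA per cell cannot be told apart.

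Kbtbd11 (ENSMUSG00000055675) lies on the plus strand at chr8:15011025-15033333 of GRCm38, in the GENCODE annotation. Its level was 2.398, 2.23 and 2.25 FPKM in DMSO replicates 1, 2 and 3, from 314, 300 and 292 fragments. In DASA-58 replicates 1, 2 and 3 it was 1.06, 0.639 and 0.849 FPKM, from 142, 83 and 115 fragments. The groups were apart, and the lowest DMSO library was 2.11 times the highest DASA-58 library, the widest gap among the 4 genes. The group means were 2.29 ± 0.0925 FPKM for DMSO and 0.848 ± 0.209 FPKM for DASA-58 (SD, n = 3 per group), so that 37.03% of the DMSO level was left. As a log2 ratio of group means this was -1.43. On the log2(FPKM + 1) scale, which understates differences of low genes, the difference was -0.84 (standard error 0.0953).

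The DASA-58 libraries spread further from each other in Kbtbd11 than in the other members. The highest was 1.65 times the lowest, against 1.08 times among the DMSO libraries. The 95% Poisson interval, which covers counting error only, was 0.890 to 1.25 FPKM in DASA-58 replicate 1 and 0.509 to 0.792 FPKM in replicate 2, without overlap. The chi-square of the fragments given library depth, divided by its degrees of freedom and near 1 when only counting varies, was 6.76 among the DASA-58 libraries and 0.491 among the DMSO libraries. Over 9573 genes its median was 1.36 and 1.67, respectively. A pair of genes, 5830468F06Rik and Gm37844, overlap Kbtbd11 on the opposite strand, and whether counting used strand is not given in the sources used here. Gm37844 did not exceed 0.0388 FPKM, and 5830468F06Rik was not analysed here.

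Fam102a (ENSMUSG00000039157) lies on the plus strand at chr2:32535332-32569756. It was the most abundant of the 4 genes, at 11.8, 11.01 and 10.99 FPKM in the DMSO libraries from 1314, 1259 and 1214 fragments. The DASA-58 libraries held 7.78, 8.15 and 7.31 FPKM from 889, 899 and 841 fragments. The groups were apart, with little spread inside each. The group means were 11.3 ± 0.465 and 7.75 ± 0.420 FPKM (SD, n = 3 per group), so that 68.7% of the DMSO level was left, the largest share among the members. As a log2 ratio of group means this was -0.54, and the log2(FPKM + 1) difference was -0.49 (standard error 0.05004).

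Btbd11 (ENSMUSG00000020042) lies on the plus strand at chr10:85386814-85660292. Its DMSO libraries stood at 3.76, 3.18 and 3.46 FPKM, from 692, 602 and 633 fragments. The DASA-58 libraries stood at 2.096, 2.197 and 2.18 FPKM, from 396, 401 and 415 fragments, and lay close together. The chi-square per degree of freedom was 4.47 in the DMSO group and 0.254 in the DASA-58 group, the opposite order to that of Kbtbd11. The group means were 3.47 ± 0.288 and 2.16 ± 0.0541 FPKM (SD, n = 3 per group), which left 62.2% of the DMSO level. As a log2 ratio of group means this was -0.68, and the log2(FPKM + 1) difference was -0.50 (standard error 0.0649).

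Gzmb (ENSMUSG00000015437) lies on the minus strand at chr14:56258838-56262260. It rested on the fewest fragments, 50, 48 and 61 in the DMSO libraries and 25, 22 and 29 in the DASA-58 libraries. These correspond to 1.898, 1.77 and 2.33 FPKM and 0.925, 0.842 and 1.06 FPKM. The groups were apart, although some Poisson intervals overlapped between them. That of DMSO replicate 2, 1.31 to 2.35 FPKM, reached into those of DASA-58 replicates 1 and 3, 0.598 to 1.365 FPKM and 0.713 to 1.53 FPKM. That of DMSO replicate 1, 1.408 to 2.502 FPKM, also reached into that of DASA-58 replicate 3. The group means were 2.001 ± 0.294 and 0.944 ± 0.112 FPKM (SD, n = 3 per group), which left 47.2% of the DMSO level. As a log2 ratio of group means this was -1.08, and the log2(FPKM + 1) difference was -0.62 (standard error 0.0937).

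**Figure D1:**
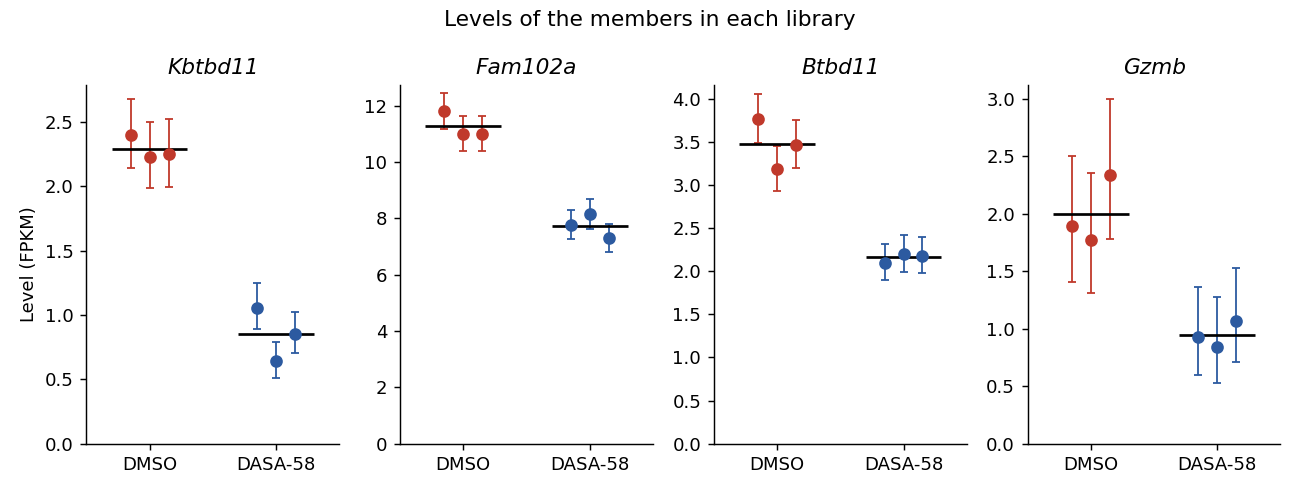
Level in FPKM (vertical axes, each starting at 0) of the 4 genes in the 3 DMSO libraries (red) and the 3 DASA-58 libraries (blue). Points are libraries with 95% Poisson intervals of the recovered fragments and black lines are group means. The blue points lie below the red points in each gene, and the intervals are widest relative to the level for Gzmb.

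In all 4 genes each DASA-58 library lay under each DMSO library, which the choice of the genes favours, so it is no separate evidence. The same held for 21.6% of the 10965 genes tested. The study set a cut on the log fold change of its lowered genes together with p under 0.05. It did not give the base or how the change was computed. Taken as log2 ratios of group means, Kbtbd11 and Gzmb met the fold-change part in the deposited values, with -1.43 and -1.08. Fam102a and Btbd11 did not, with -0.54 and -0.68. Another base or measure could change which genes met it, and the p part was not examined. All 4 passed the filter of 1 FPKM on the mean, Kbtbd11 and Gzmb through the DMSO group, since their DASA-58 means were under 1 FPKM. Counted from the most negative log2(FPKM + 1) difference of all genes tested, Kbtbd11 took place 20, Gzmb 56, Btbd11 112 and Fam102a 120. By DMSO level the order was Fam102a, Btbd11, Kbtbd11 and Gzmb, at percentiles 58.8, 24.5, 15.1 and 12.3 of the genes tested. The ranges of Kbtbd11 and Gzmb overlapped in both groups, so the order of these neighbours is not set by the libraries.

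**Figure D2:**
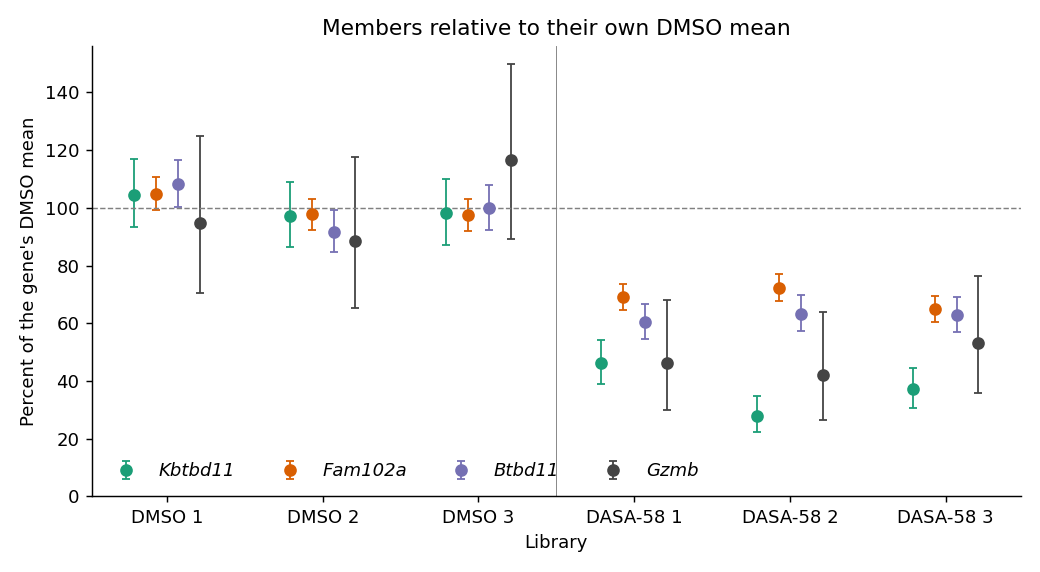
Each member in each library (horizontal axis) as a percent of the gene's own DMSO mean (vertical axis from 0), with 95% Poisson intervals and a dashed line at the DMSO mean. In the DASA-58 libraries Fam102a and Btbd11 stay between 60.4% and 72.3%, whereas Kbtbd11 ranges from 27.9% to 46.1%.

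The members did not keep 1 proportion to each other. The ratio of the Kbtbd11 level to the Fam102a level was 0.2031, 0.2025 and 0.2044 in DMSO replicates 1, 2 and 3, nearly constant. Under DASA-58 it was 0.1358, 0.07847 and 0.1162, with replicate 2 the lowest. The ratio of Fam102a to Btbd11 was 3.141, 3.459 and 3.172 under DMSO and 3.713, 3.708 and 3.352 under DASA-58, and the groups overlapped.

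Likeness of pattern was measured as a distance, the root mean square over the 6 libraries of the difference between a pair of genes in log2(FPKM + 1), each centred on its DMSO mean. Fam102a and Btbd11 were 0.0530 apart, whereas Kbtbd11 was 0.195 from Gzmb, 0.265 from Btbd11 and 0.274 from Fam102a. Nearest to Kbtbd11 were the transcription factor gene Bhlhe40 at 0.0913, Atp6v0d2 at 0.0966 and Ctsk at 0.0998, where Ctsk encodes the collagen-cutting cathepsin K and Atp6v0d2 a proton pump subunit. Nearest to Fam102a were Myo10 at 0.0149, the integrin gene Itgb7 at 0.0345 and Nrp2 at 0.0427. Myo10, an unconventional myosin of filopodia, and Nrp2, a semaphorin receptor, were also among the nearest to Btbd11, at 0.0444 and 0.0448, after the transporter gene Abcb4 at 0.0432. Nearest to Gzmb were the transporter gene Slco4a1 at 0.0425, 2610528A11Rik at 0.0683 and Vcan, which encodes the proteoglycan versican, at 0.0704. The likeness of Kbtbd11 to its nearest genes depends on the scale, since the addition of 1 FPKM shrinks the difference of a low gene most. On FPKM itself Bhlhe40, Atp6v0d2 and Ctsk kept 53.9%, 53.3% and 52.2% of their DMSO means, against 37.03% for Kbtbd11. The distances describe 6 libraries and rest largely on the group difference that chose the members.

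**Figure D3:**
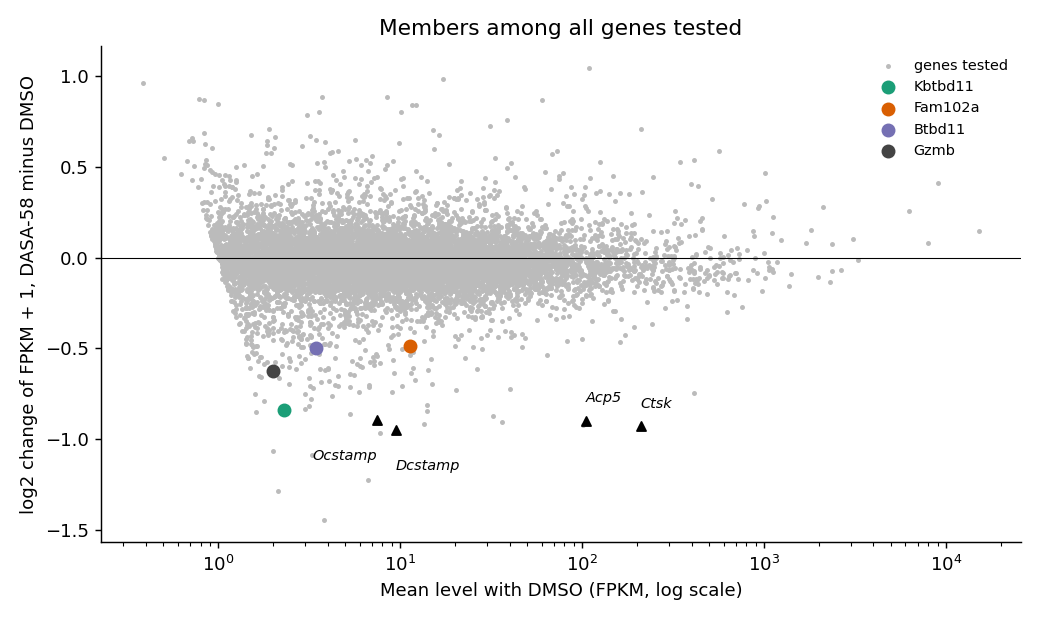
Mean DMSO level (FPKM, log scale) against the log2(FPKM + 1) difference, DASA-58 minus DMSO, for genes tested (grey), the 4 members (coloured circles) and 4 osteoclast genes (black triangles). Kbtbd11 and Gzmb sit among genes of low level, and Fam102a at -0.49 lies above Ctsk at -0.93 and Acp5 at -0.90.

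Sequence before the gene starts was taken from RefSeq (GRCm38.p6), in which 3 of the 4 members, Fam102a, Btbd11 and Gzmb, were matched. The 250 bases before each start were searched on both strands for GGAAA, the core bound by NFAT factors, for TGANTCA, bound by AP-1, and for CACGTG, an E-box bound by MITF and MYC. Of 32851 such windows in RefSeq, 55.6% held GGAAA, 6.75% TGANTCA and 6.02% CACGTG. The Gzmb window, chr14:56262335-56262584 on the minus strand, held the AP-1 motif at position -58 from the start. RefSeq lists 2 starts for Btbd11, both on the plus strand. The window of the first, chr10:85386564-85386813, held none of the motifs, and that of the second, chr10:85598161-85598410 inside the gene, held GGAAA at -132 and the AP-1 motif at -28. The Fam102a window, chr2:32535109-32535358 on the plus strand, held none of them and had a GC content of 72.0%. The Gzmb and Btbd11 windows are shown because they differ in the AP-1 motif, with motif matches in capitals, 5′ to 3′ on the gene's strand. The matches do not overlap and describe letters only, and gene-level FPKM does not show which Btbd11 start was used.
Gzmb: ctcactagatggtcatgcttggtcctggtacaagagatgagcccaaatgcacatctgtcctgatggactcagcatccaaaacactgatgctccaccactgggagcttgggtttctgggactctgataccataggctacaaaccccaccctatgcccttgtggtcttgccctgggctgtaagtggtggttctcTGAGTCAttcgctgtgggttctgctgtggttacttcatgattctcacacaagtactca
Btbd11 first start: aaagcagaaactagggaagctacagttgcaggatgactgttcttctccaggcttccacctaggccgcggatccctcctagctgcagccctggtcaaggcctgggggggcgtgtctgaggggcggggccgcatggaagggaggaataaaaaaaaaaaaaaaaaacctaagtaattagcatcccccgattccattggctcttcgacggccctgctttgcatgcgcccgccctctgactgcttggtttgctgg
Btbd11 second start: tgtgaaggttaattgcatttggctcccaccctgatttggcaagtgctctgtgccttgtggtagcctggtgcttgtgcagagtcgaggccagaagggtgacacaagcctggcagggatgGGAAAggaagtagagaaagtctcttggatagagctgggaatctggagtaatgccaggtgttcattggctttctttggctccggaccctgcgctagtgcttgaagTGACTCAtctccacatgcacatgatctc

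Fam102a was placed beside 17 genes of RANK and EEIG1 signaling, of which all 17 were tested. Under DASA-58 6 of them (35.3%) were called lower and 0 higher (limma), where 7.28% of all genes tested were lower and 4.24% higher. At an unadjusted p under 0.05 (limma), 7 were lower and 5 higher. The shares of all genes at this looser cut are not given here, and 7.28% and 4.24% do not apply to it. The median log2 change was -0.06 over the list and -0.03 over all genes. The balance of all calls moved with scaling, from 798 lower and 465 higher as deposited to 958 and 386 with equal library totals, 504 and 597 with median centring, and 588 and 600 with quantile normalization.

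At the receptor level, Tnfrsf11a, which encodes RANK, stood at 23.8, 22.1 and 24.5 FPKM in the DMSO libraries and at 18.6, 18.9 and 18.2 FPKM in the DASA-58 libraries. It fell by 0.32 on the log2 scale (standard error 0.0441, adjusted p = 0.00392, limma), without overlap. Oscar, a receptor that signals through an immunoreceptor chain, fell by 0.68 (adjusted p = 0.00484, limma). Blnk, an adaptor upstream of PLCγ2, fell by 0.26 (adjusted p = 0.00358, limma). Fcer1g and Tyrobp, of the same list, changed the other way without being called as deposited, and their groups overlapped. Their log2 changes were 0.15 and 0.12 (adjusted p = 0.0797 and 0.0857, limma).

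The 4 partners through which EEIG1 is known to act did not pass the test in either direction as deposited, although Tec did under some alternatives. Gab2, a scaffold protein, had group means of 10.96 ± 0.605 and 11.8 ± 0.632 FPKM for DMSO and DASA-58 (SD, n = 3 per group), with a log2 change of 0.10 (adjusted p = 0.279, limma). Plcg2, the phospholipase, had means of 45.04 ± 0.808 and 44.3 ± 0.183 FPKM (adjusted p = 0.631, limma). Btk had means of 38.9 ± 1.11 and 37.2 ± 1.09 FPKM (adjusted p = 0.31, limma). In Tec the DASA-58 libraries, at 15.8, 15.4 and 15.7 FPKM, all lay above the DMSO libraries, at 13.9, 13.2 and 14.6 FPKM. Its log2 change was 0.16 (adjusted p = 0.0502, limma), and without DMSO replicate 3 its adjusted p was 0.0366 (limma). Tec was also called higher at a mean of at least 5 FPKM (adjusted p = 0.0347), with median centring (0.0282), quantile normalization (0.0361), a pseudocount of 5 (0.0489) and voom weights (0.0232), all by limma, and over all alternatives the adjusted p ran from 0.0232 to 0.134.

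Among transcription factors, Nfatc1, the master regulator of osteoclast genes, had means of 20.8 ± 1.02 and 15.01 ± 0.580 FPKM (SD, n = 3 per group) and fell by 0.45 (adjusted p = 0.00116, limma). Fos, a part of AP-1, fell by 0.45 (adjusted p = 0.00262, limma). Prdm1, which encodes the repressor Blimp1, fell by 0.56 (adjusted p = 0.00435, limma). Irf8, a factor that restrains osteoclast formation, had means of 21.96 ± 1.13 and 23.8 ± 0.9005 FPKM (adjusted p = 0.17, limma). Several of the lowered genes, Oscar, Prdm1 and Nfatc1 among them, are named by the study from these libraries and are not independent evidence of a direction. For NFATc1 the study separately reported lower mRNA and protein, by RT–qPCR and Western blotting, with DASA-58 and after knockdown of PKM2.

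**Figure D4:**
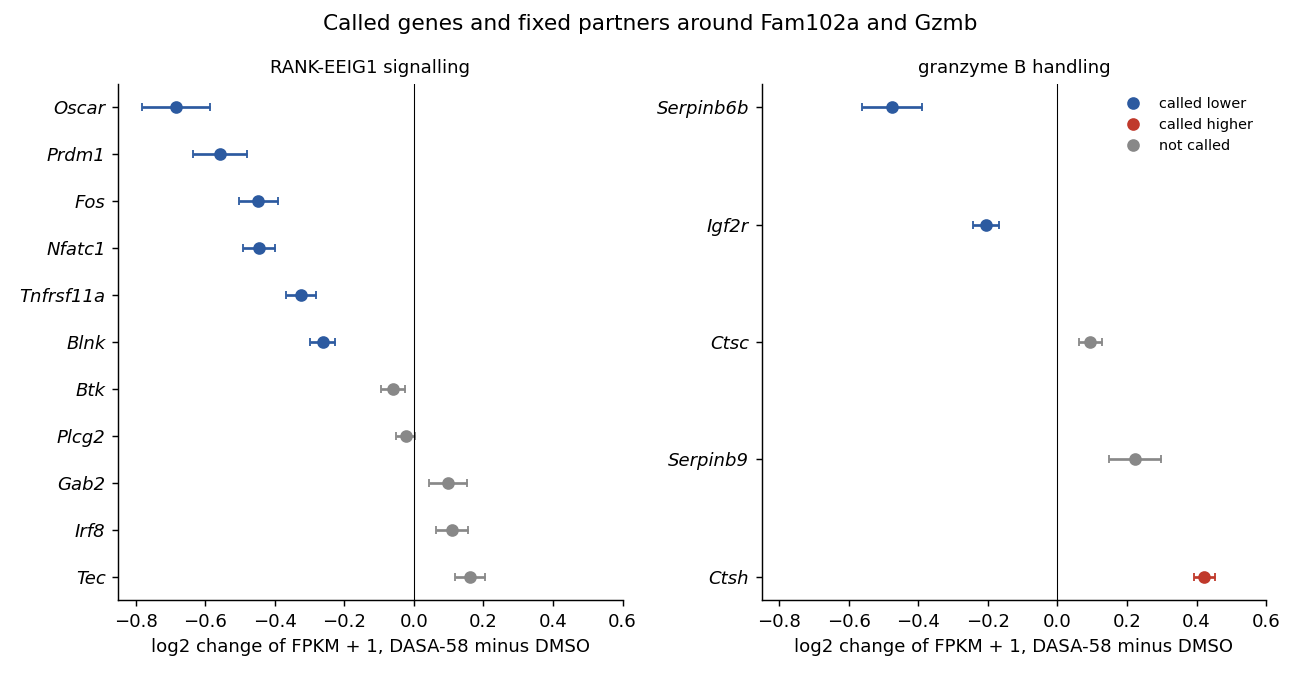
Change on the log2(FPKM + 1) scale, DASA-58 minus DMSO (horizontal axes), of the called genes and fixed partners among RANK and EEIG1 signaling (left) and granzyme B handling (right), the other tested genes being left out of the plot. Points are estimates with standard errors, blue when called lower, red when called higher and grey otherwise (limma, adjusted p under 0.05). On the left 6 of the 17 genes tested are called lower, and on the right 2 of 12 are called lower and 1 is called higher.

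Kbtbd11 was placed beside 11 genes of the CUL3 ligase, which comprise the cullin, its RING partner, other substrate adaptors, the exchange factor gene Cand1, the modifier gene Nedd8 and genes for attaching or removing that modifier. None was called in either direction (limma), where 7.28% of all genes tested were lower and 4.24% higher. With voom weights on the recovered fragments 2 were called lower. At an unadjusted p under 0.05 (limma), 3 were lower and 0 higher, and the share of all genes at this cut is not given here. The 3 genes were Cand1, Ube2m and Nedd8, with log2 changes of -0.13, -0.10 and -0.14 (adjusted p = 0.0649, 0.0778 and 0.108, limma). Cul3 had means of 25.8 ± 1.93 and 23.6 ± 0.473 FPKM (SD, n = 3 per group) and a log2 change of -0.12 (adjusted p = 0.181, limma). Without DMSO replicate 2 its adjusted p was 0.0429 (limma).

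Of 40 relatives of the 4 genes, 29 were tested, 6 were under the filter and 5 were not analysed here. None was called in either direction (limma), where 7.28% of all genes tested were lower and 4.24% higher. With voom weights 1 was called lower. At an unadjusted p under 0.05 (limma), 2 were lower and 2 higher, and the share of all genes at this cut is not given here. The median log2 change of the 29 relatives tested was -0.03. The list does not hold every relative. Btbd19, which it left out, was called lower (mean of 2.67 FPKM under DMSO, log2 change -0.34, limma). Fam102b, the paralog of Fam102a, had means of 13.1 ± 0.970 and 11.6 ± 0.2001 FPKM (SD, n = 3 per group), with a log2 change of -0.15 (adjusted p = 0.107, limma). It was the relative called with voom weights (adjusted p = 0.0311), and without DMSO replicate 2 its adjusted p was 0.0256 (limma). Abtb1, a relative of Btbd11, had means of 8.19 ± 0.870 and 8.41 ± 0.668 FPKM (adjusted p = 0.807, limma). Abtb2, another one, was under the filter, with 61 to 69 fragments in DMSO and 86 to 100 in DASA-58 libraries.

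No other granzyme gene that was tested was called (limma). Gzmc, the nearest tested gene to Gzmb, held 26 to 32 fragments in DMSO and 20 to 27 in DASA-58 libraries, with a log2 change of -0.20 (adjusted p = 0.229, limma). Gzmd held 7 to 21 and 17 to 33 fragments (log2 change 0.30, adjusted p = 0.412, limma), and Gzme 18 to 35 in both groups (log2 change 0.02, adjusted p = 0.968, limma). The groups overlapped in each of these close copies, whose shared reads counting could split or drop. Gzma, which encodes granzyme A, held 0 to 1 fragments in DMSO and 1 to 2 in DASA-58 libraries. Prf1, which encodes perforin, the pore former that lets granzymes enter target cells, held 0 to 1 fragments in any library, and a count of 0 allows up to 3.

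**Figure D5:**
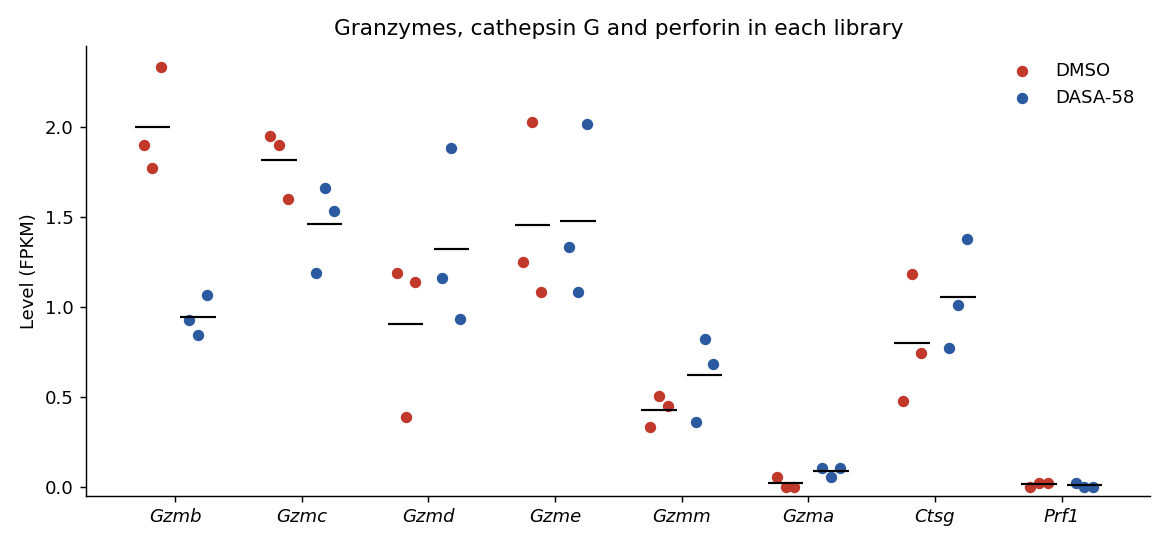
Level in FPKM (vertical axis) of Gzmb, 5 other granzyme genes, Ctsg and Prf1 in each DMSO (red) and DASA-58 (blue) library, with group means as black lines. The groups are apart in Gzmb, they overlap in Gzmc, Gzmd, Gzme, Gzmm and Ctsg, and Gzma and Prf1 lie near 0.

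Gzmb is also expressed by lymphocytes, plasmacytoid dendritic cells and mast cells, so markers of these cells were measured beside it. None of 16 T and NK cell markers reached the filter. Their summed level was 2.25 to 3.86 FPKM under DMSO and 2.38 to 3.12 FPKM under DASA-58, in overlapping ranges, and 8 of them were at 0 in some libraries. Cd3e, a part of the T cell receptor complex, held 1 to 3 fragments in DMSO and 1 to 2 in DASA-58 libraries. Nkg7, a granule membrane gene of NK and cytotoxic T cells, held 7 to 23 and 9 to 15 fragments. Klrd1, an NK cell receptor subunit, held 3 to 6 fragments in DMSO and 7 to 12 in DASA-58 libraries, without overlap and in the opposite direction to Gzmb. Il2rb, a receptor subunit for interleukin-2, had means of 0.948 ± 0.377 and 0.529 ± 0.187 FPKM (SD, n = 3 per group), lower with DASA-58 as Gzmb was but with overlapping groups. For 6 mast cell and basophil markers the sum was 0.342 to 0.432 FPKM under DMSO and 0.193 to 0.58 FPKM under DASA-58, and 4 were at 0 in some libraries. For 7 plasmacytoid dendritic cell markers it was 344 to 382 FPKM and 348 to 366 FPKM, mostly from Bst2, Clec12a and Irf8, which macrophages also express. The defining marker Siglech held 0 to 1 fragments in DMSO libraries and 0 in DASA-58 libraries. Cox6a2, of the same list, had means of 1.19 ± 0.238 and 0.866 ± 0.265 FPKM (SD, n = 3 per group). Its log2 change was -0.24 (adjusted p = 0.272, limma), lower as Gzmb was but with overlapping groups. Irf8 changed the other way, by 0.11 (adjusted p = 0.17, limma). The part of such cells in the Gzmb level was not tested.

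Of 14 genes that handle granzyme B or are cut by it, 12 were tested. Under DASA-58 2 (16.7%) were called lower and 1 higher (limma), where 7.28% and 4.24% of all genes were. The median log2 change was 0.07 over the list and -0.03 over all genes, so the list as a whole did not lean lower. Ctsc, whose product activates progranzymes, had means of 146 ± 5.88 and 156 ± 0.514 FPKM (SD, n = 3 per group; adjusted p = 0.106, limma). Ctsh, which encodes another protease able to do so, stood at 21.5, 21.1 and 21.9 FPKM in the DMSO libraries and 29.04, 29.3 and 29.1 FPKM in the DASA-58 libraries. It rose by 0.42 on the log2 scale (adjusted p = 2.51e-04, limma), without overlap.

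Serpinb9, the intracellular inhibitor of granzyme B, had means of 4.58 ± 0.237 and 5.53 ± 0.637 FPKM (SD, n = 3 per group; adjusted p = 0.0988, limma). Serpinb6b, another intracellular serpin, had means of 3.85 ± 0.446 and 2.48 ± 0.271 FPKM and fell by 0.48 (adjusted p = 0.0129, limma). Igf2r, the mannose 6-phosphate receptor, which can take up granzyme B, had means of 34.2 ± 1.43 and 29.5 ± 0.503 FPKM and fell by 0.21 (adjusted p = 0.0129, limma). Without DASA-58 replicate 3 its adjusted p was 0.0539 (limma).

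The nearest tested gene on each side of each member was examined as well. None of the 8 neighbours was called (limma), where 7.28% of all genes tested were lower and 4.24% higher. With voom weights 1 was called higher. An unadjusted p under 0.05 (limma) was found for 2, and the share of all genes at this cut is not given here. Dpm2, 1102 bases past Fam102a, had means of 20.6 ± 0.797 and 19.9 ± 0.873 FPKM (SD, n = 3 per group) and a log2 change of -0.05 (adjusted p = 0.519, limma). Cln8, 109305 bases before Kbtbd11 and the gene called with voom weights, had means of 22.1 ± 0.503 and 23.99 ± 0.256 FPKM, with each DASA-58 library above each DMSO library (log2 change 0.11, adjusted p = 0.0593, limma). Gm8394, 72375 bases before Btbd11, had a log2 change of -0.26 (adjusted p = 0.125, limma), and without DASA-58 replicate 2 its adjusted p was 0.0464 (limma). Mcph1, Naif1, Pwp1 and Cenpj had log2 changes of -0.15 to 0.05. Mcph1 lies 3561798 bases from Kbtbd11, so the nearest tested gene is not always close. The distances were 78379 bases from Naif1 to Fam102a, 169202 from Pwp1 to Btbd11 and 264501 from Cenpj to Gzmb.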

How the data were processed

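The authors deposited FPKM values in 1 table with a column per library, and the submitters' processing notes name HISAT2 2.1.0, HTSeq 0.6.0 and mm8. The annotation and the strand setting are not given in the sources used here. Symbols (for 23455 of 23504 genes), coordinates and exon lengths came from GENCODE mouse release 21 on GRCm38, which is not the build the notes name. Depth was read from the 400 lowest values of single-exon genes in each library, and fragments came out whole within 0.02 in every library for 21368 genes (90.9%), the members included. A count of 0 allows 3 fragments.

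For the comparison, limma 3.58.1 (R 4.3.3, variance trend, no replicate block) was run on log2(FPKM + 1) of the 10965 genes averaging 1 FPKM or more, with Benjamini-Hochberg adjustment. It was also run on simulated data in which every gene had the same spread beyond counting. That run does not cover genes that spread more. The alternatives were other pseudocounts, filters, scalings and variance models, voom weights, a replicate block and each library left out. The members and lists were chosen with earlier results of these data known. Genes named were the members, called list genes (up to 8 per list by p), fixed partners, nearest neighbours, the 3 genes nearest in pattern and 4 osteoclast genes. Gzmd, Gzme, Gzmm, Ctsg, Cd3e, Nkg7, Klrd1, Il2rb, Lyz2, Siglech, Bst2, Clec12a, Cox6a2, Fcer1g, Tyrobp, Cand1, Ube2m, Nedd8 and Btbd19 were named after their values were seen. Some list genes are not reported here by name. Python 3.11.15, pandas 2.3.3 and matplotlib 3.10.9 were used for the rest.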

Additional observations from a re-analysis of the deposited data

How the results depend on the processing

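Each member stayed lower under every alternative in which it was fitted, which the choice of the genes on these same libraries favours. With a mean of at least 5 FPKM, Kbtbd11, Btbd11 and Gzmb were not kept. By construction the pseudocount set the size for these low genes. The log2 change was -1.36 for Kbtbd11, -0.66 for Btbd11, -1.01 for Gzmb with a pseudocount of 0.1, -0.32 for Kbtbd11, -0.35 for Fam102a, -0.24 for Btbd11, -0.24 for Gzmb with 5, and -1.45 for Kbtbd11, -0.68 for Btbd11, -1.06 for Gzmb with voom weights. With a library left out it was -0.92 to -0.75 for Kbtbd11, -0.52 to -0.45 for Fam102a, -0.55 to -0.45 for Btbd11, -0.68 to -0.55 for Gzmb. Gzmb rests on few fragments, which limits its precision.

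Over all genes, lower and higher calls numbered 372 and 257 with no filter on low values, 314 and 227 without variance shrinkage, and 1266 and 699 with voom weights, and 504 and 515 were lower with median centring and without a variance trend. With a library left out they numbered 387 to 603 and 272 to 375, beyond 1.5 times fewer without DMSO replicate 1 (387 and 282) and DASA-58 replicates 1 (413 and 272), 2 (467 and 296) and 3 (400 and 276). Same-numbered libraries did not deviate together (r = -0.0155, 0.0157 and -0.0162), which cannot show whether they share a mouse, culture or batch. The replicate block gave 579 lower and 378 higher genes, -0.84 for Kbtbd11, -0.49 for Fam102a, -0.50 for Btbd11, -0.62 for Gzmb, and the same counts for the lists and neighbours.

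In RANK and EEIG1 signaling 3 genes were lower without shrinkage, where Fos, Prdm1 and Oscar had adjusted p of 0.055, 0.0591 and 0.0611 (limma), and 6 with any library left out. Higher genes there numbered 2 at a mean of at least 5 FPKM, 1 with median centring or a pseudocount of 5, 3 with quantile normalization or voom weights, and 0 to 1 with a library left out. Of the CUL3 genes 2 were lower with equal library totals or voom weights and 0 to 1 with a library left out. Of the relatives 1 was lower without shrinkage or with voom weights and 0 to 1 with a library left out. Of the granzyme B genes 1 was lower at a mean of at least 5 FPKM or with no filter, 0 without shrinkage (adjusted p of 0.0679 for Igf2r and 0.0883 for Serpinb6b, limma) and 1 to 2 with a library left out, and 3 were higher with voom weights. Of the neighbours 1 was higher at a mean of at least 5 FPKM, with median centring, quantile normalization or voom weights, and 0 to 1 lower with a library left out. The sign turned only in uncalled genes near 0. With median centring Plcg2 stood at 0.003 and Pwp1 at 0.001. With a library left out Pwp1 ranged over -0.068 to 0.033 (above 0 without DASA-58 replicate 1, 0.033, or DMSO replicate 3, 0.006), Abtb1 over -0.031 to 0.106 (below 0 without DASA-58 replicate 3, -0.003, or DMSO replicate 3, -0.031) and Mcph1 over -0.036 to 0.083 (below 0 without DASA-58 replicate 3, -0.036, or DMSO replicate 2, -0.020). Beyond these constructions the cause was not tested.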
